A study of Mus musculus with 42 samples.

Results

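Transcripts of iron handling and haem scavenging were followed in kidney and liver of mice that had eaten 1 of 6 compounds. The set held 10 of the 43629 genes in the count table, chosen by symbol alone: Hamp, Hp, Hpx, Cp, Trf, Tfrc, Slc40a1, Fth1, Ftl1 and Steap4. Each symbol matched 1 Ensembl gene, so all 10 were found, and no measured value entered the rule.

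Iron travels in plasma on transferrin (Trf) and enters cells through transferrin receptor 1 (Tfrc). Inside the cell it is stored in ferritin, a shell built of heavy (Fth1) and light (Ftl1) chains, and it leaves through the exporter ferroportin (Slc40a1). Hepcidin (Hamp), a peptide hormone of the hepatocyte, triggers the breakdown of ferroportin and so holds iron inside cells. Its gene is known to respond to iron through BMP and SMAD signalling and to inflammation through interleukin 6 and STAT3. Haptoglobin (Hp) binds free haemoglobin, hemopexin (Hpx) binds free haem and ceruloplasmin (Cp) is a copper-containing ferroxidase. The liver secretes these plasma proteins and makes more of them during the acute phase response to inflammation. Steap4 is a membrane metalloreductase that turns ferric into ferrous iron.

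The mice were males of the UM-HET3 stock, which is genetically mixed because it is bred from several inbred strains. Mice were put on the diets when 3 months old, ate them for 1 month and were 4 months old when tissue was taken. Kidney libraries came from mice fed AS-703026 (30 ppm), ascorbyl-palmitate (6.3 ppm), AZD8055 (20 ppm), enzastaurin (75 ppm), GDC-0941 (50 ppm) or KU0063794 (10 ppm), with 4 libraries each, and from littermates on the control diet, with 6 libraries. Liver libraries came from AS-703026, enzastaurin and GDC-0941 mice at the same doses, again with 4 each. Liver of control mice was not analysed here, so each liver group was set against the other liver groups and no liver value is a change from an untreated state. AS-703026 inhibits the kinase MEK, AZD8055 and KU0063794 inhibit the kinase mTOR, GDC-0941 inhibits PI3-kinase, enzastaurin inhibits protein kinase C beta, and ascorbyl-palmitate is a fat-soluble ester of vitamin C. RNA came from frozen organ tissue and was read by CEL-seq, which sequences the 3' ends of polyadenylated RNA. Fewer cells of a type and less RNA per cell cannot be told apart in such bulk samples.

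Liver libraries held 1084591 to 4361115 counts in all, and kidney libraries 863605 to 5691067 with a median of 2248550. Markers fitted the tissue labels: summed over 8 kidney epithelium markers, liver libraries held 3.31 CPM or less and kidney libraries 13200 to 67500 CPM. A set of 13 satellite-like gene models took at least 5% of the counts in 11 kidney libraries, 3 of them from AS-703026 and 2 from control mice. In liver that share was at most 1.77%. A pair of kidney libraries stood apart by Alb: enzastaurin replicate 1 held 630 CPM of Alb, the albumin gene, AZD8055 replicate 4 held 236 CPM, and the other 28 kidney libraries at most 11.8 CPM. Over the whole list of 12 hepatocyte markers, enzastaurin replicate 1 held 5300 CPM, above the 1380 to 4240 CPM of those 28, while AZD8055 replicate 4 held 2420 CPM and lay among them. AZD8055 replicate 4 also held 27800 CPM over 8 adipocyte markers, and every other kidney library at most 322 CPM. The same library gave the lowest kidney epithelium sum, 13200 CPM, where the other AZD8055 kidneys held 53500 to 56100 CPM and every other kidney library at least 36900 CPM. Results that rest on this pair, called the high-Alb libraries here, are given with and without it. The submitters call the libraries biological replicates, and p-values measure the spread between these libraries.

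Several of the genes carry an iron-responsive element, a hairpin in the untranslated part of the transcript that iron regulatory proteins bind when iron is scarce. In ferritin and ferroportin transcripts the hairpin lies before the coding region, where binding blocks translation, and in the Tfrc transcript several lie after it, where binding protects the transcript from decay. The sequences are shown because they mark which members are known to answer to iron after transcription, through a step that transcript counts see for Tfrc and do not see for ferritin or ferroportin protein. GENCODE M21 transcripts (GRCm38) were searched for the loop CAGTGN with its unpaired C and 5 paired stem bases on each side of the loop. A site also had to lie in an untranslated region, with at least 3 of the 6 positions below that stem paired. G with T counted as a pair. The search matched 58 of 21462 coding genes (0.27%), among them 4 of the 10 members. The 30-base sites follow in transcript sense, with the loop in capitals. The Fth1 site is at chr19:9982732-9982761 (+ strand), the Ftl1 site at chr7:45459778-45459807 (- strand), the Slc40a1 site at chr1:45925464-45925493 (- strand), and 4 Tfrc sites lie between chr16:32631219-32631248 and chr16:32631710-32631739 (+ strand), of which the outer ones are printed.
Fth1: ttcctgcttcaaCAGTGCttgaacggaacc
Ftl1: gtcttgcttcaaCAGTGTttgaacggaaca
Slc40a1: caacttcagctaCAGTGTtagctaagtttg
Tfrc (outer site nearer the coding region): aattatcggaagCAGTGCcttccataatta
Tfrc (outer site farther from it): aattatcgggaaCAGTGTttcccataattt

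Promoter sequence of RefSeq (GRCm38.p6, bases before each gene's start) was matched for 7 of the 10 members, and the Hamp and Steap4 promoters are shown because a STAT-type motif was found in them. The motif TTCNNNGAA reads the same on either strand and was present in 7.02% of 32851 promoters of 250 bases. The motif GGCGCC, a BMP-responsive element of hepcidin genes, was present in 9.59%. In the Hamp promoter (chr7:30944034-30944279, - strand) GGCGCC starts at -109 and TTCNNNGAA at -97 from the RefSeq start, with no overlap, and in the Steap4 promoter (chr5:7960222-7960455, + strand) TTCNNNGAA starts at -116. The capitals mark the motifs. Tfrc held GGCGCC at -89, and neither motif was found in the windows of Hpx, Cp, Fth1 and Ftl1. A match is a match of letters and was not tested as a binding site.
Hamp: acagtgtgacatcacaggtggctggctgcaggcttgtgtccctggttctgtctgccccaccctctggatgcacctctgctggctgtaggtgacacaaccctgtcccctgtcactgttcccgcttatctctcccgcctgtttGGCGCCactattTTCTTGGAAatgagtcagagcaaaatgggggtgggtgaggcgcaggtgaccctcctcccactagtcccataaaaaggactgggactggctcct
Steap4: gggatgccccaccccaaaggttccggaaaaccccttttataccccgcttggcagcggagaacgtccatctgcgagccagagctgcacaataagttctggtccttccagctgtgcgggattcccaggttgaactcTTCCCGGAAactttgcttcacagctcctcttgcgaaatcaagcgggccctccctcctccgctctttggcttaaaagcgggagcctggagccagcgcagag

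In liver, the scavengers of haemoglobin and haem, the ferroxidase and the metalloreductase were higher under AS-703026 than under either other compound, while hepcidin, ferroportin, the transferrin receptor and ferritin were not called different. Against enzastaurin and against GDC-0941 alike, Hp, Hpx, Cp and Steap4 were called higher, which is 4 of 10 members, and 0 were called lower. A call is an adjusted p under 0.05 in edgeR's quasi-likelihood test with Benjamini-Hochberg adjustment over the 9490 genes tested in liver. Over all of these genes 2.96% were called against enzastaurin (1.93% higher) and 3.22% against GDC-0941 (2.04% higher). The median log2 difference of the 10 members was 0.37 in each comparison, against -0.01 (enzastaurin) and -0.00 (GDC-0941) over all genes tested. Both comparisons use the same 4 AS-703026 libraries, so they are not independent of each other. Levels are CPM, counts scaled to the library's TMM-adjusted total, and differences are log2 with the SE of the fit. CPM of 3'-end counts are compared between libraries here and not between genes.

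Haptoglobin (Hp, ENSMUSG00000031722, GRCm38 chromosome 8, 109575128 to 109579172) was at 9050, 2100, 6700 and 3490 CPM in AS-703026 livers 1 to 4. It was at 1140, 778, 999 and 730 CPM in enzastaurin livers, and at 1170, 1170, 987 and 1080 CPM in GDC-0941 livers. Every AS-703026 liver lay above every other liver, and the AS-703026 group spread over a wider range than the others. Hp differed on the log2 scale by 2.55 ± 0.34 (SE) against enzastaurin, with an edgeR adjusted p of 0.00155, and 2.28 ± 0.34 against GDC-0941, with an edgeR adjusted p of 0.00217.

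Hemopexin (Hpx, ENSMUSG00000030895, chromosome 7, 105591613 to 105600137) was at 38300, 8510, 28100 and 15300 CPM in AS-703026 livers. It was at 5900, 5070, 5320 and 4120 CPM in enzastaurin livers and at 4540, 4370, 4870 and 5060 CPM in GDC-0941 livers. The AS-703026 livers again lay above all others, and AS-703026 replicates 1 and 3 were the highest and replicate 2 the lowest of the group, as for Hp. Hpx differed on the log2 scale by 2.15 ± 0.34 against enzastaurin (edgeR adjusted p = 0.00357) and 2.26 ± 0.34 against GDC-0941 (edgeR adjusted p = 0.00229). Over the 12 livers the genes whose centred log2 levels lay nearest to Hpx, among 8323 genes, were Lbp, with a root mean square difference of 0.08, Itih3 with 0.14 and Lrg1 with 0.21. Nearest to Hp were Lbp (0.22), Hpx itself (0.23) and Lrg1 (0.29), on the same log2 scale, where Hp itself had an SD of 1.21 over the livers.

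Ceruloplasmin (Cp, ENSMUSG00000003617, chromosome 3, 19957054 to 20009145) moved by less and varied by less. It was at 2490, 1730, 2450 and 1680 CPM in AS-703026 livers, against 1030, 852, 1210 and 841 CPM in enzastaurin livers and 1090, 875, 992 and 911 CPM in GDC-0941 livers. The lowest AS-703026 liver was above the highest of the other 8. Cp differed on the log2 scale by 1.09 ± 0.16 against enzastaurin (edgeR adjusted p = 0.0026) and 1.11 ± 0.16 against GDC-0941 (edgeR adjusted p = 0.00201). Cp overlaps the antisense gene Hps3, whose 2569 counts over all libraries compare with 46038 for Cp, and the counting's strand setting is not given in the sources used here. The genes nearest to Cp over the 12 livers were Pwwp2a (0.15), C3 (0.17) and Cd302 (0.17), as root mean square log2 differences.

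Transferrin (Trf, ENSMUSG00000032554, chromosome 9, 103204001 to 103230444), the iron carrier of plasma, did not pass the test. It was at 16000, 9930, 15300 and 12000 CPM in AS-703026 livers, against 11400, 9580, 10000 and 7460 CPM in enzastaurin livers and 9040, 8830, 8890 and 8380 CPM in GDC-0941 livers. The AS-703026 livers overlapped the enzastaurin livers and lay above the GDC-0941 livers. Trf differed on the log2 scale by 0.47 ± 0.17 against enzastaurin (edgeR adjusted p = 0.187) and 0.60 ± 0.17 against GDC-0941 (edgeR adjusted p = 0.078). The second of these was called by DESeq2 (adjusted p = 0.00844), by limma voom with sample weights (adjusted p = 0.0398), with no filter on low counts, and in edgeR without AS-703026 replicate 2, where the log2 difference was 0.71 (adjusted p = 0.02).

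Steap4 (ENSMUSG00000012428, chromosome 5, 7960457 to 7982213) was at 335, 51.7, 284 and 120 CPM in AS-703026 livers. It was at 67.7, 30.5, 24 and 38.2 CPM in enzastaurin livers and at 38.7, 52.9, 33.9 and 32 CPM in GDC-0941 livers. AS-703026 replicate 2 lay inside the range of the other groups, and the remaining 3 lay above it. Steap4 differed on the log2 scale by 2.35 ± 0.45 against enzastaurin (edgeR adjusted p = 0.0113) and 2.34 ± 0.45 against GDC-0941 (edgeR adjusted p = 0.0104). Nearest to Steap4 over the livers were Orm1 (0.35), Hp (0.38) and Hpx (0.40), as root mean square log2 differences. The calls of Hp, Hpx, Cp and Steap4 held in all 12 fits that each left out 1 liver, with log2 differences against enzastaurin of 2.17 to 2.81 for Hp, 1.76 to 2.42 for Hpx, 0.99 to 1.20 for Cp and 1.99 to 2.68 for Steap4.

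**Figure D1:**
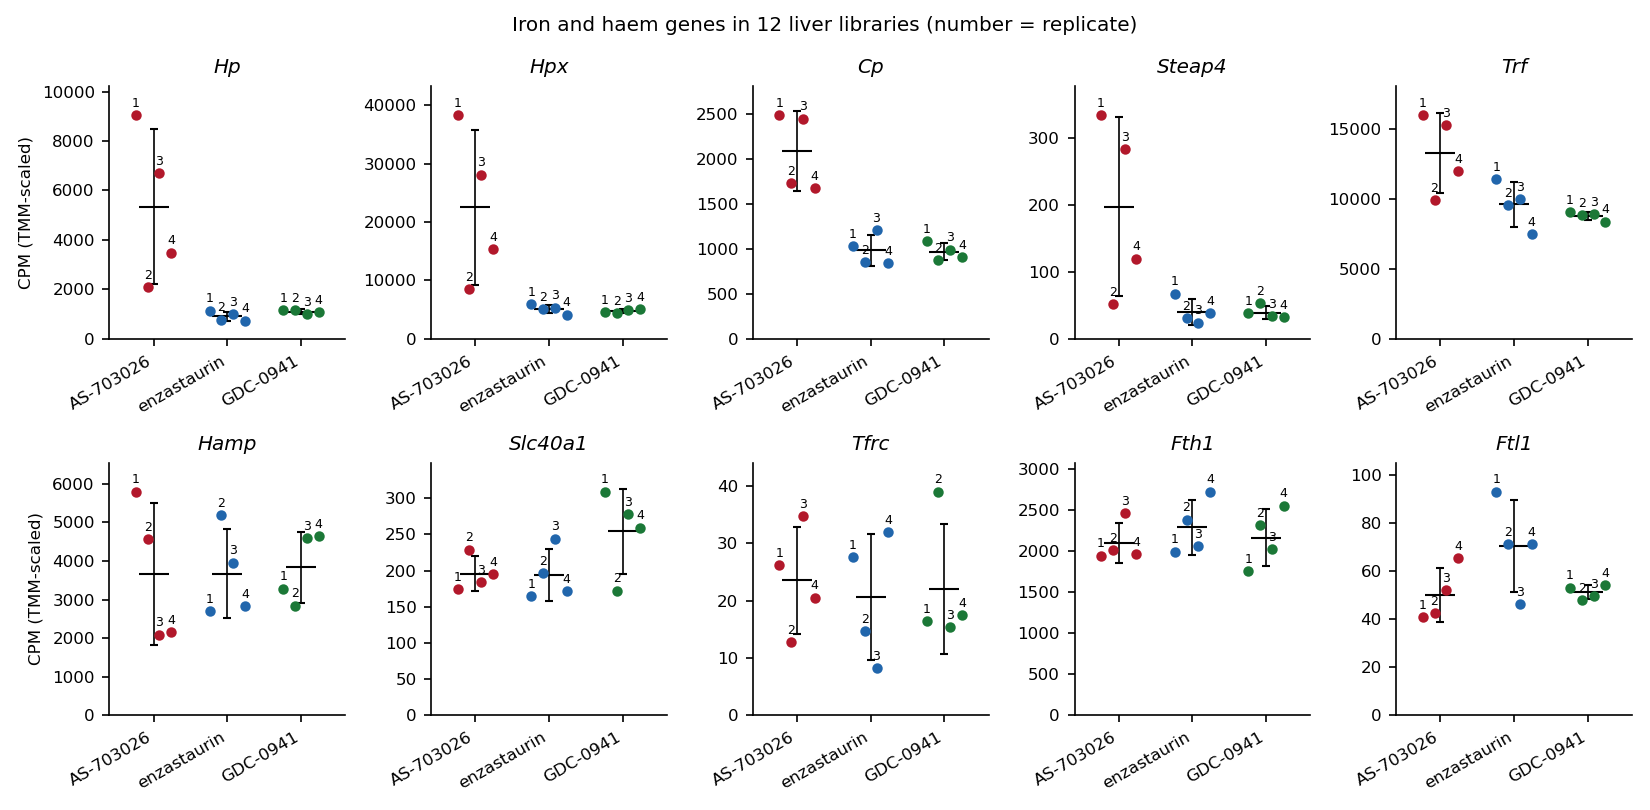
Level of each of the 10 genes in CPM on TMM-scaled totals (vertical axis, linear from 0) in the 12 liver libraries by compound, with the mean and SD of each group as a bar with caps and the replicate number above each point. The AS-703026 points of Hp, Hpx and Cp lie above all others, AS-703026 replicate 2 of Steap4 (51.7 CPM) lies among the other livers, and the groups overlap for Hamp, Slc40a1, Tfrc, Fth1 and Ftl1.

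Hepcidin (Hamp, ENSMUSG00000050440, chromosome 7, 30942368 to 30944032) was not called. It was at 5800, 4570, 2090 and 2150 CPM in AS-703026 livers, at 2700, 5180, 3960 and 2830 CPM in enzastaurin livers, and at 3280, 2840, 4600 and 4650 CPM in GDC-0941 livers. The 3 groups overlapped throughout, with the highest and the lowest liver both in the AS-703026 group. Hamp differed on the log2 scale by -0.01 ± 0.32 against enzastaurin (95% interval -0.63 to 0.61, edgeR adjusted p = 0.998) and -0.07 ± 0.32 against GDC-0941 (95% interval -0.69 to 0.55, edgeR adjusted p = 0.949). These intervals do not include the differences measured for Hp, Hpx, Cp or Steap4. The genes nearest to Hamp over the livers were Emc9 (0.30), Rogdi (0.30) and Apol9b (0.31), as root mean square log2 differences, beside an SD of 0.50 for Hamp itself.

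Hamp2, a near copy of the gene, varied widely between livers. Its level was 1610, 42.6, 30.8 and 725 CPM in AS-703026 livers, 44.9, 51.1, 58.3 and 46 CPM in enzastaurin livers, and 83.4, 2610, 3570 and 2850 CPM in GDC-0941 livers. The 12 livers fell into 5 with at least 725 CPM and 7 with at most 83.4 CPM, with no liver between, and the high livers came from AS-703026 and GDC-0941 mice. As a share of the counts of both genes, Hamp2 took 21.7% (95% Wilson interval 21.1 to 22.4) in AS-703026 replicate 1 and 25.2% in replicate 4, and 47.9%, 43.7% and 38% in GDC-0941 replicates 2, 3 and 4. In the other 7 livers it took 0.924% to 2.48%. Such intervals cover counting error only. Any difference between the 3 groups passed for Hamp2 (edgeR F test, adjusted p = 0.041), but limma voom, the replicate block and 8 of the 12 fits without 1 liver lost the call, and no comparison of 2 groups passed in edgeR. Hamp2 differed on the log2 scale by 3.59 ± 1.11 between AS-703026 and enzastaurin (edgeR adjusted p = 0.109), -1.91 ± 1.01 between AS-703026 and GDC-0941 (edgeR adjusted p = 0.384) and -5.50 ± 1.20 between enzastaurin and GDC-0941 (edgeR adjusted p = 0.227). All 3 comparisons were called with no filter on low counts. DESeq2 called enzastaurin against GDC-0941 (adjusted p = 0.00653) and AS-703026 against enzastaurin (adjusted p = 0.0419), and edgeR on the 2 groups alone called enzastaurin against GDC-0941 (adjusted p = 0.0339), so the Hamp2 calls depend on the method. The genes share sequence, since 41.6% of the 24-base words of Hamp transcripts also occur in Hamp2 transcripts, so counting may split or drop reads between them and both levels are uncertain to that extent.

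**Figure D2:**
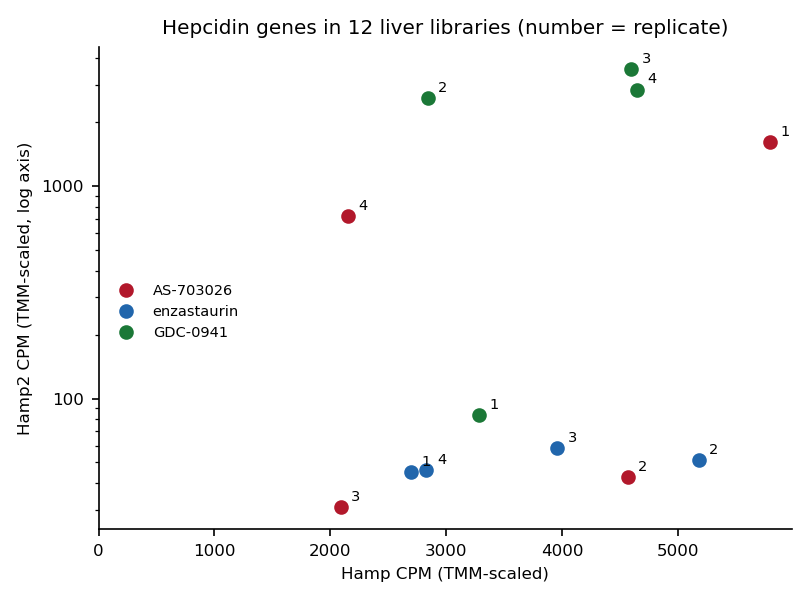
Hamp2 level (vertical axis, log scale) against Hamp level (horizontal axis, linear), both in CPM on TMM-scaled totals, for the 12 liver libraries, coloured by compound and numbered by replicate. Hamp spans 2090 to 5800 CPM in 1 continuous range, while Hamp2 lies at 725 CPM or more in 5 livers and at 83.4 CPM or less in 7.

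Among genes that control hepcidin, Stat3 and Socs3 were called higher under AS-703026 in both comparisons, while the list as a whole stayed near 0. Of 22 tested genes that control hepcidin, 4 were called higher and 0 lower in AS-703026 than in enzastaurin livers, and 2 higher and 0 lower than in GDC-0941 livers. Over all genes tested 2.96% and 3.22% were called in that order. The list medians were 0.04 and 0.01 on the log2 scale, beside -0.01 and -0.00 over all genes tested. The called genes were members of the interleukin 6 branch and, against enzastaurin only, a transferrin sensor. Stat3, the transcription factor of the interleukin 6 branch, averaged 174 ± 42.2 CPM in AS-703026 livers, 80.8 ± 9.36 CPM in enzastaurin livers and 77 ± 14.5 CPM in GDC-0941 livers (SD, n = 4 each), with log2 differences of 1.12 (edgeR adjusted p = 0.00334) and 1.18 (edgeR adjusted p = 0.00196). Socs3, a feedback inhibitor that STAT3 is known to induce, averaged 31.6 ± 10.5 CPM in AS-703026 livers, 8.49 ± 5.37 CPM in enzastaurin livers and 3.6 ± 2.32 CPM in GDC-0941 livers (SD, n = 4 each). Its log2 differences were 2.00 (edgeR adjusted p = 0.0122) and 3.10 (edgeR adjusted p = 0.00129). The interleukin 6 signal transducer Il6st was higher by 0.55 against enzastaurin (edgeR adjusted p = 0.0287), and Tfr2, a hepatocyte sensor of loaded transferrin, by 0.40 (edgeR adjusted p = 0.0445), calls that 6 and 10 of the 12 fits without 1 liver lost. Against GDC-0941 the Tfr2 difference was 0.35 (edgeR adjusted p = 0.069).

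Id1 and Smad7, targets of the BMP and SMAD branch, were not called with the filter on low counts. Id1, a standard target of BMP signalling, was at 8.74, 12.7, 4.56 and 12.2 CPM in AS-703026 livers, against 13, 25.3, 26.9 and 12.6 CPM in enzastaurin livers and 23.2, 13.6, 13.1 and 24.4 CPM in GDC-0941 livers. The AS-703026 livers overlapped the enzastaurin livers and lay just below the lowest GDC-0941 liver, with log2 differences of -1.13 ± 0.35 (edgeR adjusted p = 0.115) and -1.02 ± 0.36 (edgeR adjusted p = 0.149). With no filter, Id1 was called in both comparisons, with log2 differences of -1.15 ± 0.23 (edgeR adjusted p = 3.79e-05) and -1.04 ± 0.23 (edgeR adjusted p = 0.000328), and the other 5 alternatives of each did not call it. Smad7, an inhibitor in the same branch, differed by -0.69 (edgeR adjusted p = 0.348) and -0.31 (edgeR adjusted p = 0.728). Bmp6, the ligand that liver endothelial cells make in response to iron, had 1 count in each of 2 livers and 0 in the other 10, so its level could not be compared at this depth.

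The members for uptake, export and storage were not called in liver, and their groups overlapped. Tfrc (ENSMUSG00000022797, chromosome 16, 32608920 to 32632794) ranged from 12.7 to 34.7 CPM in AS-703026 livers, from 8.27 to 31.9 CPM in enzastaurin livers and from 15.4 to 39 CPM in GDC-0941 livers. Slc40a1 (ENSMUSG00000025993, chromosome 1, 45908068 to 45926523) ranged from 174 to 229 CPM in AS-703026 livers, from 165 to 244 CPM in enzastaurin livers and from 172 to 309 CPM in GDC-0941 livers. No liver group stood clear of another for either gene. The log2 difference of Slc40a1 was 0.01 ± 0.17 between AS-703026 and enzastaurin (edgeR adjusted p = 0.996) and -0.38 ± 0.17 between AS-703026 and GDC-0941 (edgeR adjusted p = 0.276), and that of Tfrc was 0.27 ± 0.40 (edgeR adjusted p = 0.819) and 0.14 ± 0.39 (edgeR adjusted p = 0.91). Ferritin heavy chain (Fth1, ENSMUSG00000024661, chromosome 19, 9980598 to 9985098) ranged from 1940 to 2460 CPM in AS-703026 livers, from 1990 to 2720 CPM in enzastaurin livers and from 1750 to 2550 CPM in GDC-0941 livers. Its log2 differences were -0.13 ± 0.15 (95% interval -0.42 to 0.16) and -0.04 ± 0.15 (95% interval -0.33 to 0.25).

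Ferritin light chain (Ftl1, ENSMUSG00000050708, chromosome 7, 45457944 to 45459884) ranged from 40.7 to 65.3 CPM in AS-703026 livers, from 46.3 to 93.1 CPM in enzastaurin livers and from 48 to 54.2 CPM in GDC-0941 livers. The log2 difference was -0.47 ± 0.19 between AS-703026 and enzastaurin (edgeR adjusted p = 0.222) and -0.01 ± 0.19 between AS-703026 and GDC-0941 (edgeR adjusted p = 0.99). Ftl1 has processed copies: 57.5% of the 24-base words of its transcripts occur in Ftl1-ps1, which was given 413 counts over all libraries beside 2990 for Ftl1. How reads that fit several copies were counted is not given in the sources used here, so the Ftl1 level is uncertain.

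Between enzastaurin and GDC-0941 livers 0 of the 10 members were called, with 0% of the 9490 genes called by edgeR. Unadjusted p-values under 0.05 were found for 2 members, Slc40a1 with a log2 difference of -0.39 ± 0.17 and Ftl1 with 0.46 ± 0.18. DESeq2 and limma voom also called 0. For any difference between the 3 liver groups, edgeR's F test called Hp, Hpx, Cp and Steap4 among the members and 3.2% of all genes tested.

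**Figure D3:**
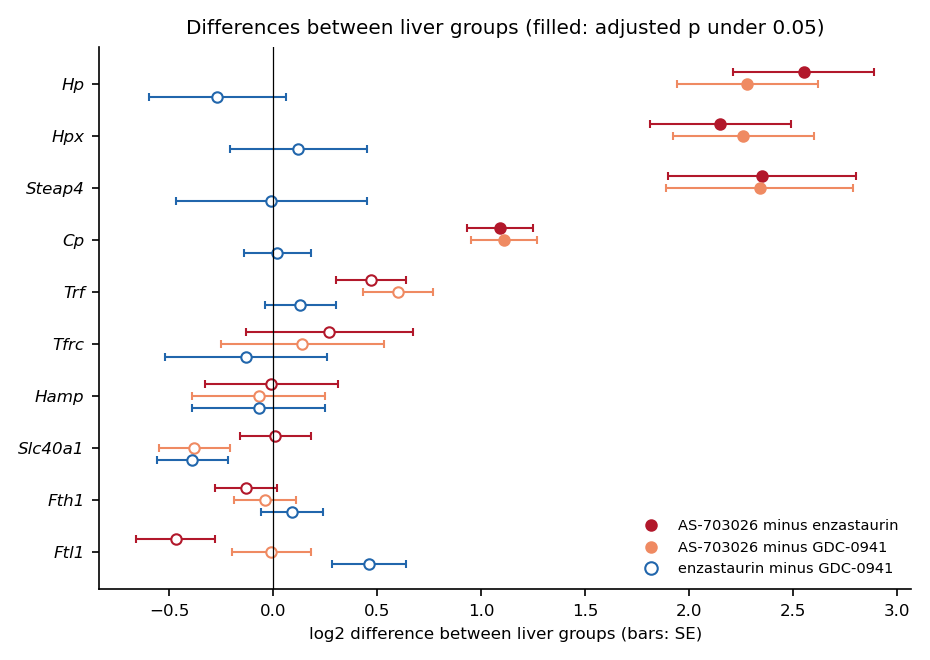
Log2 difference between liver groups (horizontal axis, with SE bars) for the 10 genes (vertical axis), with AS-703026 minus enzastaurin and AS-703026 minus GDC-0941 in reds and enzastaurin minus GDC-0941 in blue, and filled points for an adjusted p under 0.05. Hp, Hpx, Steap4 and Cp stand at 1.09 to 2.55 in the AS-703026 comparisons and near 0 in blue, and all other points are open.

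Around the members, other genes of iron and haem handling in liver gave fewer calls than acute phase genes. The shares called over all genes tested were 2.96% against enzastaurin and 3.22% against GDC-0941. Of 18 other acute phase genes, 16 were called higher in AS-703026 than in enzastaurin livers and 17 higher than in GDC-0941 livers, with medians of 2.03 and 2.17 on the log2 scale. Saa1, a serum amyloid of the acute phase, was at 21500, 313, 9770 and 2330 CPM in AS-703026 livers, against 46.3 to 72 CPM in enzastaurin livers and 34.6 to 56.3 CPM in GDC-0941 livers. Its AS-703026 livers rank as those of Hp, Hpx and Steap4 do, with replicate 1 highest and replicate 2 lowest. The list was drawn up with earlier results of these data known and is no independent evidence.

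Of 9 tested genes of iron transport, the same 2 were higher in both comparisons and 0 were lower. Over all genes tested 2.96% were called against enzastaurin and 3.22% against GDC-0941. Slc39a14 (ZIP14), a hepatic importer of iron that is not bound to transferrin, averaged 95 ± 13.2 CPM in AS-703026 livers, 48.9 ± 13.9 CPM in enzastaurin livers and 50.2 ± 8.54 CPM in GDC-0941 livers (SD, n = 4 each), with log2 differences of 0.98 (edgeR adjusted p = 0.00853) and 0.93 (edgeR adjusted p = 0.0104). Steap2, a relative of Steap4, averaged 12.3 ± 2.69 CPM in AS-703026 livers, 3.54 ± 1.65 CPM in enzastaurin livers and 3.13 ± 1.22 CPM in GDC-0941 livers (SD, n = 4 each), with log2 differences of 1.72 (edgeR adjusted p = 0.0113) and 1.93 (edgeR adjusted p = 0.00604). Of 12 haem breakdown and transport genes, Ambp, the precursor of the haem-binding protein alpha-1-microglobulin, was higher by 0.91 (edgeR adjusted p = 0.0144) and 1.05 (edgeR adjusted p = 0.00595). In that list Pgrmc1, a haem-binding membrane protein, was lower than in GDC-0941 livers, with a log2 difference of -0.38 (edgeR adjusted p = 0.0454), a call that 10 of 12 fits without 1 liver lost. Haem oxygenase 1 (Hmox1), which breaks haem down, differed by 0.58 (edgeR adjusted p = 0.337) and -0.05 (edgeR adjusted p = 0.959). Of 10 tested iron sensing and storage genes 1 was called, Nfs1, the cysteine desulfurase of iron-sulphur cluster assembly, with -0.73 against enzastaurin (edgeR adjusted p = 0.0189), and 5 of 12 fits without 1 liver lost that call.

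Neutrophil and erythroid marker sums were higher in every AS-703026 liver than in every other liver. Macrophage and Kupffer cell sums overlapped those of the enzastaurin livers. Summed over 8 neutrophil markers the level was 29.9 to 82.6 CPM in AS-703026 livers, 2.48 to 10.6 CPM in enzastaurin livers and 1.64 to 4.48 CPM in GDC-0941 livers, with 2 to 4 of the 8 markers at 0 in each AS-703026 liver. Summed over 7 erythroid markers it was 5060 to 8660 CPM in AS-703026 livers, 1360 to 3550 CPM in enzastaurin livers and 2060 to 4690 CPM in GDC-0941 livers. Over 12 macrophage and Kupffer cell markers it was 453 to 667 CPM in AS-703026 livers, 336 to 618 CPM in enzastaurin livers and 282 to 447 CPM in GDC-0941 livers. The satellite-like share of counts was 0.857% to 1.77% in AS-703026 livers and at most 0.645% in the other 8. The part of these in the differences above was not tested.

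In kidney, 6 of the 10 members passed the filter on low counts, and Hamp, Hp, Hpx and Steap4 did not, so no change by compound was tested for those 4. Among the 6, Tfrc was called lower under AS-703026 and Trf higher under AZD8055, and each call has a limit given with it. Of the 11719 genes tested, 0.922% were called under AS-703026, 0.0427% under ascorbyl-palmitate, 5.46% under AZD8055, 0% under enzastaurin, 0.137% under GDC-0941 and 0.0427% under KU0063794, each against control. All 6 comparisons share the same 6 control libraries.

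Tfrc was at 27.6, 22, 26.6 and 29.9 CPM in AS-703026 kidneys, and in control kidneys it ran from 35.7 CPM through a median of 48.1 CPM to 68.9 CPM. Every AS-703026 kidney lay below every control kidney. The log2 difference was -0.92 ± 0.22 with an edgeR adjusted p of 0.0406, close to the threshold. The difference stayed between -0.99 and -0.81 in the 30 fits that each left out 1 kidney library, while the call was lost in 14 of them (adjusted p up to 0.204), each of the 4 AS-703026 libraries and controls 1, 3, 4 and 5 included. Of the 4 AS-703026 kidneys 3 have a high satellite-like share, and without all such libraries the remaining AS-703026 kidney gave -0.90 ± 0.45 (edgeR adjusted p = 0.797), on the assumption that a lone library varies as the others do. Markers of inner medulla and collecting duct moved with this group: summed over 7 markers they were at 365, 459, 759 and 5080 CPM in AS-703026 kidneys, against 206 to 295 CPM in control kidneys. Replicate 4, with the highest sum, had the highest Tfrc of its group. Neutrophil sums were 5.84 to 23.1 CPM in AS-703026 kidneys and 0 to 5.3 CPM in control kidneys, where no neutrophil marker passed the filter. Erythroid sums overlapped, with 3250 to 15400 CPM in AS-703026 kidneys and 967 to 8660 CPM in control kidneys, and edgeR called 0 of the 5 erythroid markers tested. The part of any of these in the Tfrc difference was not tested.

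In the other kidney groups Tfrc was not called. The log2 difference was -0.24 ± 0.21 under ascorbyl-palmitate, 0.10 ± 0.21 under AZD8055, 0.04 ± 0.21 under enzastaurin, -0.37 ± 0.21 under GDC-0941 and -0.36 ± 0.21 under KU0063794, with edgeR adjusted p of 0.487 or more in each. Group means ran from 26.5 ± 3.34 CPM under AS-703026 through 38.9 ± 9.2 CPM under KU0063794, 39.6 ± 3.36 CPM under GDC-0941, 43.1 ± 5.08 CPM under ascorbyl-palmitate, 51.7 ± 13.2 CPM under enzastaurin and 54.8 ± 17.7 CPM under AZD8055 (SD, n = 4 each), beside 50.8 ± 13.8 CPM in control kidneys (SD, n = 6). Apart from the AS-703026 group, neighbours in that order lay within each other's spread. For any difference between the 7 kidney groups Tfrc had an edgeR adjusted p of 0.0746. Of 7 alternatives other than leaving out 1 library, 4 called it, so this result depends on the setting. The genes nearest to Tfrc over the 30 kidneys were Fmo5 (0.26), Agps (0.29) and Tmem30a (0.31), as root mean square log2 differences.

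Ferroportin did not pass the test under any compound. Slc40a1 was at 53.3, 47.3, 29.9 and 28.1 CPM in AS-703026 kidneys, at 33.5, 51.6, 38.9 and 40.2 CPM in ascorbyl-palmitate kidneys and at 36.7, 41.1, 51.9 and 32.4 CPM in AZD8055 kidneys. Control kidneys ran from 45.7 CPM through a median of 58.1 CPM to 63.2 CPM, so each of these groups overlapped control. The log2 differences were -0.54 ± 0.20 (edgeR adjusted p = 0.168), -0.45 ± 0.19 (edgeR adjusted p = 0.312) and -0.47 ± 0.19 (edgeR adjusted p = 0.153), and those under enzastaurin, GDC-0941 and KU0063794 were -0.10, -0.28 and -0.17. The importer Slc11a2 (DMT1), which brings ferrous iron into cells, differed by -0.54 ± 0.17 under AS-703026 (edgeR adjusted p = 0.115). Without the 2 high-Alb libraries, an alternative chosen after seeing the data, Slc11a2 differed by -0.53 ± 0.14 (edgeR adjusted p = 0.0438), and without the satellite-rich libraries, which leaves 1 AS-703026 kidney, by -0.22 ± 0.29 (edgeR adjusted p = 0.951).

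Ceruloplasmin varied widely among kidneys and was not called in the main fit. Of 8 alternatives other than leaving out 1 library, 1 called Cp under ascorbyl-palmitate and 1 under AZD8055. For any difference between the 7 kidney groups Cp had an edgeR adjusted p of 0.124, and 2 of 7 such alternatives called it. Cp was at 30.2, 40.7, 39.4 and 57 CPM in AS-703026 kidneys and at 99.7, 22.6, 61.4 and 29.3 CPM in ascorbyl-palmitate kidneys. Control kidneys ran from 14.7 CPM through a median of 19.2 CPM to 30 CPM, which the ascorbyl-palmitate kidneys overlapped and the AS-703026 kidneys just cleared. The log2 difference was 1.06 ± 0.47 under AS-703026 (edgeR adjusted p = 0.277) and 1.38 ± 0.46 under ascorbyl-palmitate (edgeR adjusted p = 0.179). A fit of the AS-703026 and control kidneys alone gave 1.10 ± 0.23 and called it (edgeR adjusted p = 0.0343). Without the satellite-rich libraries Cp differed by 0.69 ± 0.83 (edgeR adjusted p = 0.945), with 1 AS-703026 kidney left, and with the replicate block by 0.95 ± 0.56 (edgeR adjusted p = 0.518). Under AZD8055 Cp was at 21.8, 38.3, 12.2 and 128 CPM, a log2 difference of 1.31 ± 0.47 (edgeR adjusted p = 0.0981) that came to 0.22 ± 0.43 without the high-Alb libraries. Cp differed by 0.47 ± 0.48 under enzastaurin, 0.33 ± 0.49 under GDC-0941 and -0.45 ± 0.51 under KU0063794, and none was called. AZD8055 and KU0063794, both mTOR inhibitors, were fed at 20 ppm and 10 ppm, so their values stand side by side without a comparison.

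Ferritin transcripts were not called in any kidney comparison. Fth1 averaged 3550 ± 580 CPM under AS-703026, 4160 ± 633 CPM under ascorbyl-palmitate, 4430 ± 591 CPM under AZD8055, 4310 ± 358 CPM under enzastaurin, 4540 ± 735 CPM under GDC-0941 and 4160 ± 452 CPM under KU0063794 (SD, n = 4 each), and 3550 ± 605 CPM in control kidneys (SD, n = 6). The largest log2 differences were 0.35 ± 0.15 under GDC-0941 (edgeR adjusted p = 0.313) and 0.32 ± 0.15 under AZD8055 (edgeR adjusted p = 0.238). Ftl1 ranged over the 30 kidneys from 6.68 to 38.8 CPM, with log2 differences between -0.12 and 0.47 that all had an edgeR adjusted p of 0.72 or more.

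**Figure D4:**
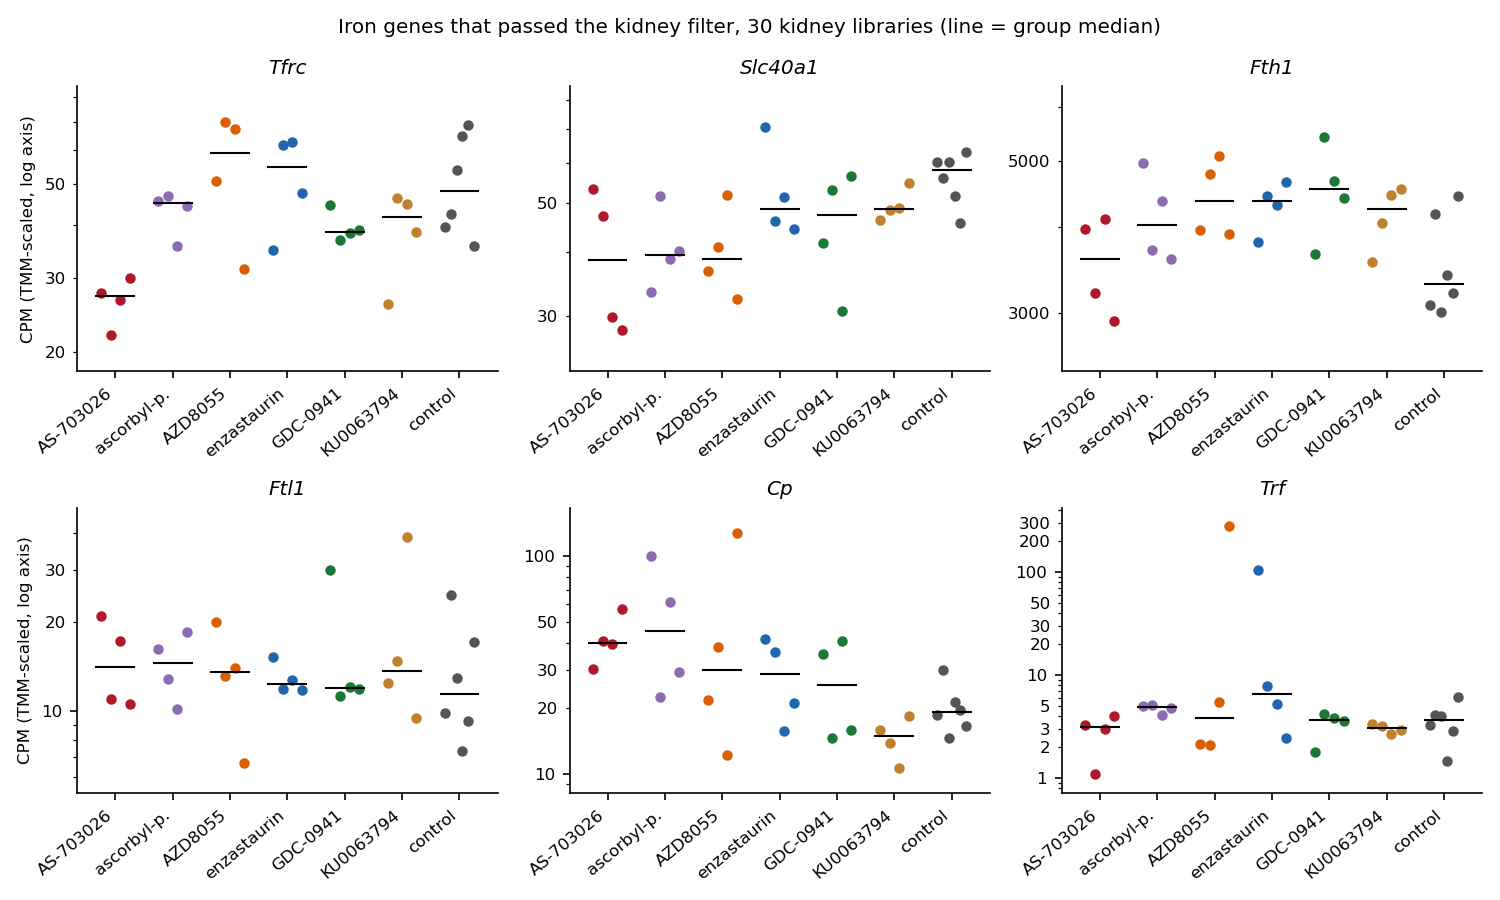
Level in CPM on TMM-scaled totals (vertical axis, log scale) of the 6 genes that passed the kidney filter, in the 30 kidney libraries by diet, with the control diet at the right and a line at each group's median. The 4 AS-703026 points of Tfrc (22 to 29.9 CPM) lie below all control points, and Trf stands apart in AZD8055 replicate 4 (279 CPM) and enzastaurin replicate 1 (104 CPM).

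The Trf call under AZD8055 rested on 1 library. Trf was at 2.14, 2.09, 5.5 and 279 CPM in AZD8055 kidneys, against 1.47 to 6.2 CPM in control kidneys. The log2 difference of 4.21 ± 0.99 (edgeR adjusted p = 0.0131) came to -0.27 ± 0.87 without AZD8055 replicate 4 (edgeR adjusted p = 0.952) and to -0.04 in limma voom, which gives outlying libraries less weight. Under enzastaurin Trf was at 104, 7.82, 5.28 and 2.48 CPM, a log2 difference of 2.75 ± 1.04 (edgeR adjusted p = 0.503) that came to 0.46 ± 0.41 without the high-Alb libraries. Among the 7 kidney groups edgeR's F test called Trf (adjusted p = 0.00619) and 2.51% of all genes tested, and without those 2 libraries the Trf adjusted p was 0.696. In the other 28 kidneys Trf lay between 1.1 and 7.82 CPM.

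The same pair of libraries held most kidney counts of the members that did not pass the filter. Enzastaurin replicate 1 and AZD8055 replicate 4 held 66 and 43 of 118 Hamp counts, 33 and 1038 of 1145 Hp counts, 80 and 54 of 162 Hpx counts, and 2 and 480 of 569 Steap4 counts. Enzastaurin replicate 1 had 56.2 CPM of Hamp, 28.1 CPM of Hp, 68.2 CPM of Hpx and 1.7 CPM of Steap4. AZD8055 replicate 4 had 22.1 CPM of Hamp, 534 CPM of Hp, 27.8 CPM of Hpx and 247 CPM of Steap4. In the other 28 kidneys Hamp was at most 1.47 CPM and at 0 in 23 of them, Hp at most 4.4 CPM, Hpx at most 2.2 CPM and Steap4 at most 4.4 CPM, and a count of 3 was worth 0.52 to 3.4 CPM in those libraries. The pair differed in kind: Steap4 and Hp were high in the library with 27800 CPM of adipocyte markers, while Hamp and Hpx were higher in the library with more Alb. Where the transcripts of either library came from was not tested.

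**Figure D5:**
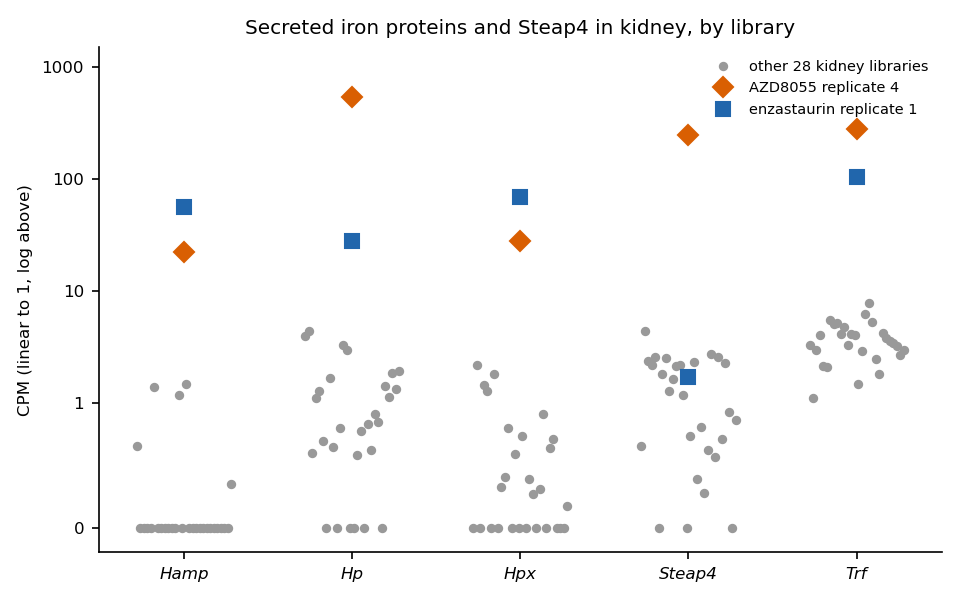
Level in CPM on TMM-scaled totals (vertical axis, linear up to 1 and log above) of 5 genes in the 30 kidney libraries, with AZD8055 replicate 4 and enzastaurin replicate 1 marked and the other 28 in grey. The grey points stay at or below 7.82 CPM, and the marked libraries reach 534 CPM of Hp, 247 CPM of Steap4 and 279 CPM of Trf, with Steap4 of enzastaurin replicate 1 (1.7 CPM) among the grey points.

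Under ascorbyl-palmitate, enzastaurin, GDC-0941 and KU0063794, edgeR called 0 of the 6 members measured in kidney. Over all genes tested it called 0.0427%, 0%, 0.137% and 0.0427% in that order, so 0 of 6 is near those shares. Without adjustment 2, 1, 1 and 0 members in that order had a p under 0.05, and DESeq2 and limma voom called 0 in each. Among the pathway genes in kidney, 0 of 15 hepcidin control genes, 0 of 12 transport genes, 0 of 9 sensing and storage genes and 0 of 10 haem genes were called by edgeR under any of these 4 compounds or under AS-703026. Under AS-703026 0.922% of all genes tested were called, so these counts too are near the share over all genes. Under AZD8055 the called pathway genes were the hepcidin regulator Hfe and the complement gene C3, and both rested on AZD8055 replicate 4. Without that library the C3 difference of 4.34 ± 1.00 came to -0.30 and the Hfe difference of 1.25 ± 0.37 (edgeR adjusted p = 0.0453) to 0.19 ± 0.29 (edgeR adjusted p = 0.9). The Hfe call was lost in 23 of the 30 fits without 1 library and in 4 of 8 other alternatives.

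Set against kidney under the 3 compounds given in both organs, liver held more transcript of 8 of the 10 members, all called higher, where 77.4% of 12262 genes were called and 38.2% called higher. Of these 8, Hamp, Hp, Hpx and Steap4 did not pass the kidney filter and entered this fit through their liver counts. Their direction was set by that, so their calls are no separate evidence and the count of 8 is not read against the share over all genes. Hamp ran from 2090 to 5800 CPM in 12 livers and was at 0 in 23 of 30 kidneys, and Hpx ran from 4120 to 38300 CPM in livers, with a kidney median of 0.317 CPM. The log2 difference was 10.39 ± 0.57 for Hp, 12.82 ± 0.85 for Hpx and 11.28 ± 0.55 for Trf. Without enzastaurin kidney replicate 1 these came to 11.46, 14.78 and 12.06, the highest values among the 24 fits that each left out 1 library. Cp was higher in liver by 6.02 ± 0.21, Slc40a1 by 2.91 ± 0.13 and Ftl1 by 2.68 ± 0.15, each with an edgeR adjusted p of 1.47e-14 or less. Steap4, which did not pass the kidney filter, differed by 6.41 ± 0.36.

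Tfrc and Fth1 were the members with no call between the organs. Tfrc had a median of 19 CPM in livers and 43.3 CPM in all 30 kidneys, while the fit under matched compounds gave a log2 difference of -0.08 ± 0.19 (edgeR adjusted p = 0.708). Fth1 had a median of 2040 CPM in livers and 4090 CPM in kidneys, with a log2 difference of -0.23 ± 0.12 in the fit (edgeR adjusted p = 0.0865). Levels within an organ are scaled within that organ, and the fit scales all 24 libraries together, so medians and fitted differences need not match. The Fth1 result lay near the threshold: 5 of the 24 fits without 1 library called it (-0.24 to -0.31), and limma voom (-0.24, adjusted p = 0.00966), DESeq2 (-0.34, adjusted p = 9.15e-05) and the fit without the high-Alb libraries (-0.24, edgeR adjusted p = 0.0464) did too. RLE scaling gave -0.34 ± 0.12 (edgeR adjusted p = 0.0113), and it moved the median of all genes to -0.16, against -0.05 with TMM. The direction of the other 8 members was the same under each scaling. Whether the compounds acted differently in the organs was tested as an interaction, and edgeR called 0 of the 10 members and 0.163% of 12262 genes. Without adjustment 4 members had a p under 0.05 (Hamp, Hp, Hpx and Trf), and DESeq2 and limma voom called 0. Those 4 are the members that stood far from their group in enzastaurin kidney replicate 1, at 56.2, 28.1, 68.2 and 104 CPM in that order. The other enzastaurin kidneys held at most 0, 0.833, 0.31 and 7.82 CPM. Hamp, Hp and Hpx, and Steap4 among the other members, also did not pass the kidney filter. At such kidney levels the interaction test cannot decide whether the compounds acted on these genes differently in the organs.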

How the data were processed

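The values used were raw read counts per gene as deposited by the authors, in 1 table of 43629 genes and 42 libraries, and 0 columns were left without a sample. Per the submitters' processing notes, the tools were STAR 2.5.2b, featureCounts 1.5, Trimmomatic 0.32 and bcl2fastq 1.8.4, with the mm10 genome. Not given in the sources used here are the annotation release, the strand setting and the use of molecular identifiers. GENCODE M21 gave symbols for 42548 genes.

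Groups follow the labels for tissue and compound. The least different libraries of a group differed by a chi-square of 3.67 per gene, so none counted as a duplicate. Counts were filtered (filterByExpr), scaled by TMM and fitted by tissue in edgeR 4.0.16 (R 4.3.3) with the quasi-likelihood test and Benjamini-Hochberg adjustment at 0.05 over all genes tested: 11719 in kidney, 9490 in liver and 12262 in both. The biological coefficient of variation was 0.294, 0.191 and 0.234. The steps were checked on simulated counts. Likeness is the root mean square difference of centred log2 CPM (prior count 2) among genes of at least 5 CPM. A gene model was called satellite-like where 5% or more of its 24-base words occur in Gm10800.

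Alternatives were DESeq2 1.42.0, RLE scaling, no filter, limma 3.58.1 voom with sample weights, the replicate number as a block, the 2 groups alone, leaving out each library, and leaving out libraries of at least 5% satellite-like counts. Leaving out kidney libraries with Alb over 100 CPM was added after seeing the data. Members, gene lists and named genes (the 10 members, called pathway genes with the smallest p, 9 regulators and the nearest genes) were chosen with earlier results of these data known.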

Additional observations from a re-analysis of the deposited data

Results flagged for a closer look

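In 80 gene and group pairs, 12 libraries stood far from the others of their group. The rule flags about 1 in 20 pairs by chance where values are independent and normally spread. Levels near 0 are not normally spread, and pairs that share a library are not independent, so that rate is no yardstick here. Of the 12 flagged, 9 were in the pair of high-Alb kidney libraries. AZD8055 replicate 4 stood apart at 22.1 CPM of Hamp (others at most 1.39), 534 CPM of Hp (others at most 1.28), 27.8 CPM of Hpx (others at most 1.83), 279 CPM of Trf (others at most 5.5) and 247 CPM of Steap4 (others at most 2.56). Enzastaurin replicate 1 stood apart at 56.2 CPM of Hamp (others at 0), 28.1 CPM of Hp (others at most 0.833), 68.2 CPM of Hpx (others at most 0.31) and 104 CPM of Trf (others at most 7.82). The remaining 3 were GDC-0941 liver replicate 2 with 39 CPM of Tfrc (others 15.4 to 17.5), AS-703026 liver replicate 3 with 2460 CPM of Fth1 (others 1940 to 2010) and GDC-0941 kidney replicate 1 with 30 CPM of Ftl1 (others 11.3 to 12.1).

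The metalloreductase gene Steap2 differed between the organs in how it varied with the compounds (edgeR interaction F test, adjusted p = 0.00468). It kept the call in 24 of 24 fits that each left out 1 library. With n = 4 each, Steap2 averaged 12.3 ± 2.69, 3.54 ± 1.65 and 3.13 ± 1.22 CPM (SD) in AS-703026, enzastaurin and GDC-0941 livers, and 175 ± 29.2, 208 ± 13.6 and 180 ± 29.6 CPM in kidneys under the same compounds. Steap2 was lower in liver than in kidney by a log2 difference of -4.45 ± 0.14 (edgeR adjusted p = 1.05e-19).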

How the results depend on the processing

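In liver, the 4 members called under AS-703026 kept direction and call under every alternative run; the members called ran from 4 to 4 against enzastaurin and from 4 to 5 against GDC-0941 when 1 liver was left out. In kidney the counts of members called depended on the setting. Under AS-703026 (1 called) the count was 0 with the replicate block and 0 without the satellite-rich libraries, and 0 to 1 when 1 library was left out. In the fit of 2 groups alone Cp was called and Tfrc was not (adjusted p = 0.0556). Under AZD8055 (1 called) it was 0 with DESeq2, limma voom, the replicate block, the 2 groups alone or without the high-Alb libraries, 5 with no filter, 3 without the satellite-rich libraries and 0 to 2 when 1 library was left out. With no filter it was 1 under ascorbyl-palmitate, 3 under enzastaurin and 5 for the interaction (0 in the report), which tests members at a few counts. For any difference in kidney (1 called) it was 2 with DESeq2, 7 with no filter, 0 with the replicate block, 3 without the satellite-rich libraries and 1 to 2 when 1 library was left out. The liver F test called 4 to 5 and the organ comparison 8 to 9 when 1 library was left out, and the comparisons not named here called 0.

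Reversed values were Trf under AZD8055, with -0.04 in limma voom, -0.27 to 4.58 when 1 library was left out (the lowest without AZD8055 replicate 4) and -0.25 without the high-Alb libraries, and C3, with -0.30 to 4.72 when 1 library was left out (the lowest without the same library) and -0.29 without the high-Alb libraries. The replicate block lost the calls of Tfrc under AS-703026 (adjusted p = 0.139), Trf under AZD8055 (adjusted p = 0.149) and Steap2 in the interaction (adjusted p = 0.0539). Libraries of the same number did not vary together, with a median correlation of -0.02 in kidney (-0.53 to 0.51), -0.03 in liver (-0.18 to 0.15) and 0.02 between organs, so the numbers are not read as pairs. Over all genes tested, the calls under AZD8055 (640) came to 235 with limma voom, 27 with the replicate block, 23 without the high-Alb libraries, 1219 without the satellite-rich libraries and 0 in the 2 groups alone, and those under AS-703026 in kidney (108) to 0 with the replicate block and 1 without the satellite-rich libraries. Over all gene values and alternatives, 5983 kept their side of the threshold, 114 lost it, 66 gained it and 5 reversed. Where not stated, the cause was not tested. Outside the high-Alb libraries, Hamp never passed 2 counts in a kidney, so differences in it were not detectable at this depth.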
